A study of Arabidopsis thaliana with 97 samples.

Results

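A set of 151 genes was taken from Col-0 leaf discs of Arabidopsis thaliana. Their RNA was several times higher at 180 min of flg22 than in water or during the first 30 min. The set was drawn from 27600 nuclear loci counted on their sense strand. A locus was a member when its mean over the 3 Col-0 libraries at 180 min was at least 20 TPM, that is, 20 tags in every 1000000 of the library, and at least 4 times each of the means in water and at 8, 15 and 30 min of flg22, with 1 TPM added to each of those early means. The Col-0 values of water, 8, 15, 30 and 180 min therefore selected the members: these were chosen by their Col-0 levels, which are given as a description without a test. The 45, 60 and 120 min libraries of Col-0 and all libraries of the other lines had no part in the choice.

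RNA was taken from leaf discs punched from plants 5 weeks old. The lines were the wild type Col-0 and the mutants npr1-1, jar1-1 and ein2-5, 4 in all. The plants grew in short days, and the discs were infiltrated with water under vacuum and rested in water before treatment. Each line was treated with water for 8 min or with 100 nM flg22 for 8, 15, 30, 45, 60, 120 or 180 min, and each of the 32 groups had 3 replicates. Each mutant is a single allele of one gene: NPR1 encodes a salicylic acid co-activator, JAR1 the enzyme that joins jasmonic acid to isoleucine, and EIN2 a membrane protein that ethylene signalling requires. Water was sampled at 8 min only, so time in the dish and flg22 cannot be told apart at later times, and although the study calls its replicates biological, whether they were separate plants or dishes is not given in the sources used here, so p-values measure the spread between these libraries. Each line and replicate number filled 1 of 12 lanes. The lanes of Col-0 lay on the flow cell of npr1-1, and jar1-1 and ein2-5 had separate runs, so in any comparison with jar1-1 or ein2-5 the line and the run cannot be told apart.

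flg22 is a peptide of bacterial flagellin that the receptor kinase FLS2 binds at the cell surface. Binding sets off calcium influx, an oxidative burst, MAP kinase activity and, within minutes, transcription of WRKY factors and other regulators, a response known as pattern-triggered immunity. Later in the response plant cells are known to make secreted proteins, which fold in the endoplasmic reticulum (ER), and defence compounds drawn from aromatic amino acids. Phenylalanine feeds phenylpropanoids and lignin, and tryptophan feeds camalexin and related indolic compounds.

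The assay, EXPRSS, reads 1 tag from the 3′ region of an RNA and keeps the strand, so a level in TPM is a share of all tags and was not scaled by gene length. Totals ran from 388691 to 2415393 tags per library, with 6.49% to 44.4% of them on organelle loci. RBCS1A, which encodes a Rubisco small subunit of photosynthetic leaf cells, was read in every library at 2491 to 15659 TPM. The epidermal genes differed: PDF1 and CER1 were at 0 in 94 and 91 of the 96 libraries. ATML1 was at 0 in 5 of them, and FDH was read in every library at 7.64 to 60.2 TPM. The tags of the mutated genes were no firm check of the labels, since such alleles can leave RNA: NPR1 had a median of 54.1 TPM in npr1-1 and 50.9 TPM in Col-0, JAR1 of 30.6 TPM in jar1-1 and 25.7 TPM in Col-0, and EIN2 of 3.16 TPM in ein2-5 and 11.6 TPM in Col-0, over 24 libraries each. Because discs are bulk tissue, a change in the number of cells of a type and a change of RNA per cell cannot be told apart.

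The ratio that the rule used, the 180 min mean over the highest early mean plus 1, ran from 4.02 to 44.8 with a median of 5.57. The members nearest the limit were TRA2, a transaldolase of the pentose phosphate pathway, at 4.02, PD1, an arogenate dehydratase of phenylalanine synthesis, at 4.04, and the protein kinase AT1G28390, at 4.04. Just outside it lay the cytochrome P450 CYP72C1 at 3.98, the UDP-galactose transporter AT1G14360 at 3.95 and the uncharacterised AT4G28290 at 3.93. At the other end stood AT5G40590, a cysteine- and histidine-rich C1 domain protein, at 44.8, the RING/U-box protein AT2G34000 at 32.9, the cytochrome P450 CYP82C2 at 25.0 and the copper protein UCC2 (uclacyanin 2) at 18.9. The 151 members lay on all 5 chromosomes, with 36, 35, 26, 21 and 33 on chromosomes 1 to 5. Of them, 78 were placed by their product names in 13 groups of function, and 73 were left in none.

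Members held a small share of all tags early and about 10% of them late. In Col-0 their summed share was 1.51%, 0.508% and 1.28% in the 3 water libraries and 11.5%, 11.0% and 8.55% in those at 180 min. The group means were 1.1% in water and 1.65% at 30 min. They then passed through 2.85% (45 min), 4.76% (60 min) and 9.87% (120 min) to 10.3% (180 min). Replicate 2 of Col-0 water was the lowest of its group, and it was low for many single members given below. The median member stood at 14.3 TPM in water and at 151 TPM at 180 min.

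**Figure D1:**
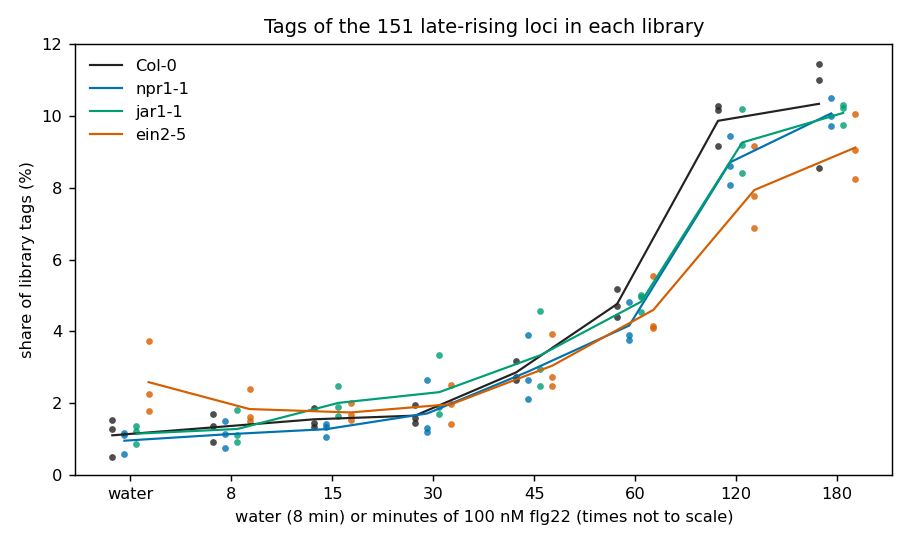
Share of each library's tags (y axis, %) held by the 151 late-rising loci, against time (x axis, water at 8 min or minutes of flg22, not to scale), with a point for each library and a line through the mean of 3 replicates in each line. The 3 Col-0 water libraries sit between 0.508% and 1.51%, those of ein2-5 water between 1.78% and 3.72%, and every line reaches a mean of at least 9.12% at 180 min.

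The rise fell mainly between 60 and 120 min. As a percentage of its own 180 min mean, the median member stood at 9.94% in water and 11.9% at 30 min, then rose through 19.7% (45 min) and 31.4% (60 min) to 85.6% (120 min). The first group to reach 50% of the 180 min mean was 45 min for 12 members, 60 min for 31, 120 min for 96 and 180 min for 12. With TMM scaling, which corrects for a few abundant RNAs, these numbers were 23, 33, 84 and 11. The highest mean of the course was at 180 min for 108 members, at 120 min for 39 and at 60 min for 4, so some members had begun to fall.

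Groups of function differed in the steepness of the course, given here as medians over their members without a test. The ER group stood at 27.0% of the 180 min mean at 60 min and at 97.4% at 120 min, and the serine and methionine group at 16.3% and 87.3%. Class III peroxidases were at 50.9% and 91.5%, transcription factors at 49.5% and 84.1%, and protein kinases at 42.5% and 86.2%. The sugar group was at 30.8% and 64.4%, and C1 domain proteins at 20.9% and 65.8%. ABCG40, an ATP-binding cassette exporter, peaked highest above its 180 min level. From 0.675, 0 and 0.693 TPM in water it went to 186, 165 and 64.7 TPM at 60 min, then to 124, 109 and 59.3 TPM at 120 min and to 32.5, 35.2 and 20.1 TPM by 180 min. Its 60 min mean was 474% of the 180 min mean, and only CYP71A12 and the glutathione transferase GSTL1 also passed 200%.

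**Figure D2:**
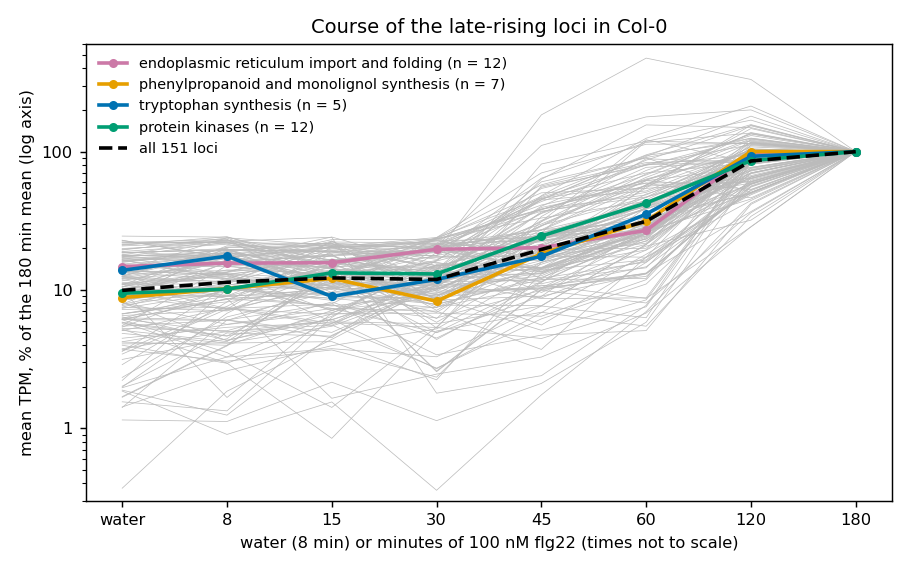
Mean level in Col-0 as a percentage of the 180 min mean (y axis, log scale) against time (x axis, water at 8 min or minutes of flg22, not to scale), with a grey line for each of the 151 loci, coloured lines for the medians of 4 groups and a dashed line for the median of all. The dashed line runs from 9.94% in water through 31.4% at 60 min to 85.6% at 120 min, and the highest grey line at 60 min is ABCG40 at 474%.

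The step from 45 to 120 min in Col-0 was tested with edgeR's quasi-likelihood test. Benjamini-Hochberg adjustment ran over 16816 sense and antisense features, with a call at an adjusted p under 0.01. The rule did not use these libraries, but they shared lanes with libraries that it used. The rule also asked for a level at the last time well above the early levels of the same course. A rise in between was thus largely built into the choice. The counts below describe when members rose and are no independent support that they rose. Of the 151 members 95 rose and 0 fell, where 6.13% of all features rose. Their median log2 change was 1.93, against -0.03 over all features. Without replicate 1 the number was 54, without replicate 2 it was 63 and without replicate 3 it was 67. Calls over all features, in either direction, went from 2771 to 1523, 1647 and 1643 in those fits. PD1 rose most. It read 2.05, 5.47 and 2.80 TPM at 45 min and 134, 141 and 139 TPM at 120 min, and its log2 change was 5.06 (SE 0.50, adjusted p 7.19e-13). AT5G40590 followed at 4.72 (SE 0.83), then the ERF-type factor AT5G61890 at 4.53 (SE 0.54), AT2G34000 at 4.36 (SE 0.73) and the uncharacterised AT5G60630 at 4.02 (SE 0.67). The lowest values were -0.45 for PRA1.B4, a prenylated RAB acceptor, and -0.01 for the glycosidase KOR2, and neither was called.

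The mutants gave tests on libraries that the rule had not used. At 180 min against water 151 of 151 members rose in npr1-1, jar1-1 had 150 and ein2-5 had 124, and 0 fell in any of them. Over all features the shares that rose were 19.6%, 20.0% and 8.8%. The members' median log2 changes were 3.67, 3.72 and 2.12 in that order, where all features had medians of 0.08, 0.04 and 0.08. Against 30 min of flg22, 147 members rose in npr1-1, jar1-1 had 141 and ein2-5 had 123, with 11.4%, 12.6% and 10.2% of all features higher, and 0 members fell. Their median log2 changes in that comparison were 2.84, 2.39 and 2.28. In all, 124 members rose against water in all 3 mutants and 113 rose against both water and 30 min in all 3. The libraries of the 3 mutants at 180 min also had fewer tags of leaf mesophyll genes, whose summed level over a list of 9 went from between 18569 and 34524 TPM in water to between 3229 and 9454 TPM at 180 min. Of these 9 genes 6 fell in npr1-1, 6 in jar1-1 and 3 in ein2-5. Of all 16816 features 6174, 6425 and 3030 were called in either direction in those lines, 3291, 3362 and 1480 of them higher and the rest lower. No listed mesophyll gene was at 0 in any library, and the part of this shift in the members' change was not tested.

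A smaller number of members had moved by 30 min in the mutants. Against water 33 rose and 2 fell in npr1-1, where 13.1% of all features rose and 6.53% fell. In jar1-1 44 rose and 2 fell, beside 13.2% and 7.02% of all features, and in ein2-5 2 rose and 2 fell, beside 8.14% and 2.89%. These counts moved with single lanes: without replicate 3 npr1-1 had 8 calls in all, jar1-1 had 24 without replicate 2 and 30 without replicate 3, and ein2-5 had 1 without replicate 3 and 7 without replicate 1. With the replicate number as a block jar1-1 had 69 higher and 2 lower, and ein2-5 had 6 higher and 11 lower. PD1 and AT5G03700, a lectin with an Apple-like domain, were the 2 members that fell in all 3 mutants. PD1 changed by -3.56 (SE 0.55, adjusted p 1.96e-07) in npr1-1, -2.03 (SE 0.49, adjusted p 0.000674) in jar1-1 and -2.58 (SE 0.44, adjusted p 3.29e-06) in ein2-5, as log2. In Col-0, where the rule used these times, PD1 read 41.8, 17.2 and 33.2 TPM in water, 2.73, 3.62 and 1.36 TPM at 30 min and 165, 154 and 111 TPM at 180 min, so all 3 libraries at 30 min lay below all 3 in water. Without replicate 3 the fall of PD1 was not called in jar1-1 (-1.77, adjusted p 0.0407) and ein2-5 (-2.03, adjusted p 0.0106). AT5G03700 changed by -1.96, -2.17 and -2.22 in npr1-1, jar1-1 and ein2-5, and it too lost its call in each of them without replicate 3 (adjusted p 0.0331, 0.0118 and 0.0392).

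The same rule, with each mutant's own means in place of those of Col-0, took 165 loci in npr1-1, while jar1-1 gave 120 and ein2-5 gave 85. The npr1-1 list shared 122 loci with the Col-0 list, 80.8% of the latter and 73.9% of the former. For jar1-1 the number was 81, 53.6% of the Col-0 list and 67.5% of its own, and for ein2-5 it was 61, 40.4% and 71.8%. Of the 151 members 43 met the rule in all 3 mutants, 46 in 2 of them, 43 in 1 and 19 in none.

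**Figure D3:**
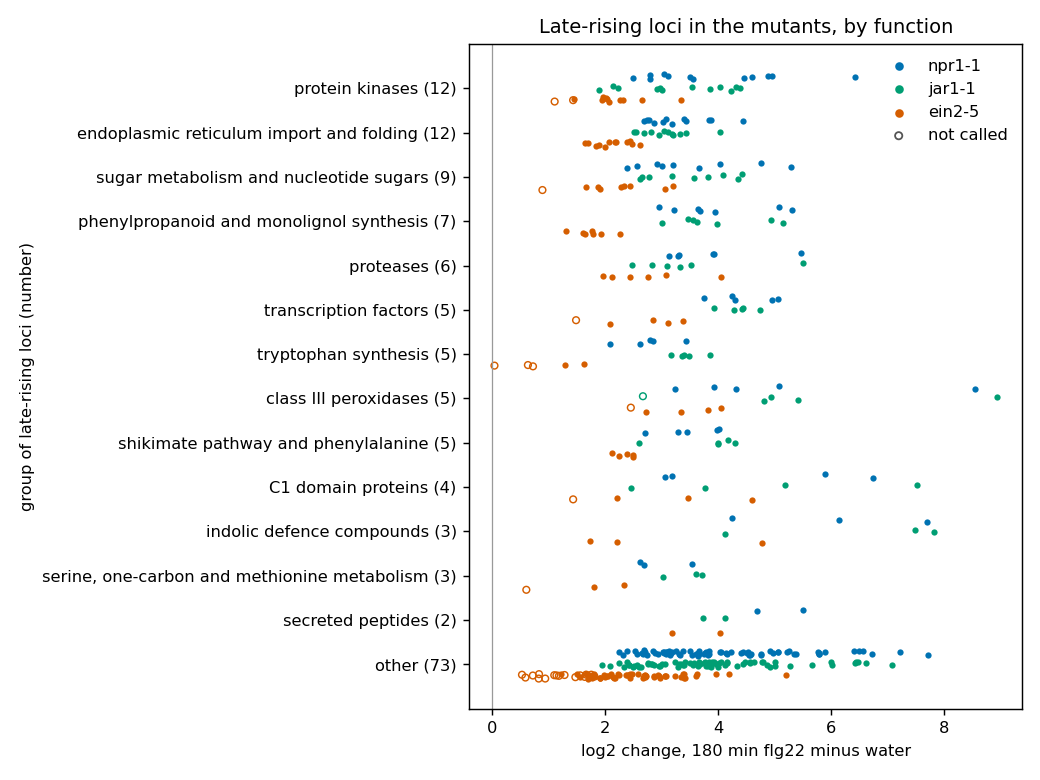
Log2 change from water to 180 min of flg22 (x axis) of each late-rising locus in npr1-1, jar1-1 and ein2-5, by group of function (y axis, number of loci in parentheses), with filled points for calls at an adjusted p under 0.01 and open circles for the rest. The medians lie at 3.67, 3.72 and 2.12, and 27 of the 28 open circles belong to ein2-5.

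The first group by role is the machinery of the ER. Proteins bound for the wall or the plasma membrane enter the ER through the Sec61 channel and are folded there by the Hsp70 protein BiP with its DnaJ partners, by calnexin and by disulfide isomerases. The 12 members comprise 4 Sec61 subunits (AT1G29310, AT3G60540, AT4G24920 and AT5G50460), BIP1, BIP2 and another Hsp70-type protein, AT4G16660, the DnaJ proteins P58IPK and ATERDJ3B, the isomerases PDIL1-2 and PDIL1-3, and calnexin CNX1. In Col-0 CNX1 read 505, 131 and 401 TPM in water, 728, 424 and 443 TPM at 60 min, 2779.5, 2238 and 1656 TPM at 120 min and 2646, 2564 and 2100.3 TPM at 180 min. BIP2 read 236, 55.7 and 215 TPM in water, 2248, 1736 and 1438 TPM at 120 min and 1663, 1496 and 1449 TPM at 180 min. The Sec61 beta subunit AT3G60540, at 39.8, 0.660 and 27.0 TPM in water and 351, 399 and 282 TPM at 180 min, was scarcer. The late libraries of these 3 genes lay above their water libraries, a description only, since the rule chose members on Col-0 water and 180 min values.

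In the mutants all 12 ER genes rose against water in each line. CNX1 changed by 3.19 (SE 0.46, adjusted p 1.6e-08) in npr1-1, 3.12 (SE 0.46, adjusted p 2.89e-08) in jar1-1 and 2.16 (SE 0.44, adjusted p 9.13e-05) in ein2-5. BIP2 changed by 3.87 (SE 0.48), 3.43 (SE 0.47) and 2.44 (SE 0.45) in the same order, and AT3G60540 by 4.45 (SE 0.63), 4.02 (SE 0.62) and 2.61 (SE 0.57). The median over the 12 was 3.13 in npr1-1, 3.08 in jar1-1 and 2.11 in ein2-5. By 30 min 2 of the 12 had risen in npr1-1, 4 in jar1-1 and 0 in ein2-5. On a list of 18 ER folding genes, 5 of which are members, 15 rose in npr1-1, 15 in jar1-1 and 13 in ein2-5.

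Genes of the ER stress response often carry an ER stress response element (ERSE), in which CCAAT and CCACG lie 9 bases apart and which bZIP factors and NF-Y proteins bind. Both strands of the 300 bases upstream of each annotated gene start on the TAIR10.1 assembly were searched for CCAAT, any 9 bases and CCACG. The element was found in 5 of 151 members (3.31%) and in 0.364% of 23920 protein-coding loci, and 4 of the 5 belong to the 12 ER genes. In each of these 4 ER genes the element lies in the last 64 bases before the start. Their 4 windows are shown, with the ERSE in capitals. They are PDIL1-2 at chr1:29126348-29126647 (plus strand), AT3G60540 at chr3:22375917-22376216 (minus strand), AT4G16660 at chr4:9376399-9376698 (plus strand) and P58IPK at chr5:749801-750100 (plus strand), each written 5′ to 3′ along its gene and ending at the base before the start.
PDIL1-2: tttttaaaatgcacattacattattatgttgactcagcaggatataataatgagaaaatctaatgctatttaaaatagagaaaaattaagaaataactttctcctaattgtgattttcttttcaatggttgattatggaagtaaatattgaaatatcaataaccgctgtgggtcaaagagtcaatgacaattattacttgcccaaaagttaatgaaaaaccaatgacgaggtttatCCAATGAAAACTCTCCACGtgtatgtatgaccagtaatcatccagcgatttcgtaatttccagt
AT3G60540: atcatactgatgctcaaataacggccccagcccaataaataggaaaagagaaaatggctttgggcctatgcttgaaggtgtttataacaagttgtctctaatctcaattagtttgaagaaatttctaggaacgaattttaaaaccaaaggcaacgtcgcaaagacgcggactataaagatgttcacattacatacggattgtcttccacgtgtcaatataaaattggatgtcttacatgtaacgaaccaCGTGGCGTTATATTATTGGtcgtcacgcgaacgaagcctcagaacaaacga
AT4G16660: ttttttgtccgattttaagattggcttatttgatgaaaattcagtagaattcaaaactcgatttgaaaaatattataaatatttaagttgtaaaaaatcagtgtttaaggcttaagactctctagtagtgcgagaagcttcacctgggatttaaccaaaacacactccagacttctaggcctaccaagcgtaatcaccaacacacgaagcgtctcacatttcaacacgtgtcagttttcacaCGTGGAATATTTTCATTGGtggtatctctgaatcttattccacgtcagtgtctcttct
P58IPK: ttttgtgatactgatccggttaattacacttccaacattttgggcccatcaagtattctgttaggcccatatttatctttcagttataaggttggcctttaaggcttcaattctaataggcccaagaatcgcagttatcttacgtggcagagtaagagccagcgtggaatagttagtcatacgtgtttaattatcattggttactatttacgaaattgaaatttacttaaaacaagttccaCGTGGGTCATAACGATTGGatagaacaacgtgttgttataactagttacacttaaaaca
The element began 64, 51, 58 and 59 bases upstream of the start and ended 46, 33, 40 and 41 bases upstream. In PDIL1-2 it read in the direction of the gene and in the other 3 on the opposite strand, so the capitals show its reverse complement. The fifth member with the element was NHO1, a glycerol kinase needed for resistance to some bacteria, where it lay 35 to 17 bases upstream. A match describes the letters and does not show that a factor bound there.

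Signalling genes made up 3 groups. FRK1, a receptor-like kinase widely used as a marker of the flg22 response, read 238, 17.2 and 197 TPM in Col-0 water, 1228, 1002 and 886 TPM at 60 min and 2814, 2436 and 2116 TPM at 180 min. AT3G46280, a kinase-like protein, read 507, 90.4 and 443 TPM in water and 3834, 3556 and 2827 TPM at 180 min. Both were among the 10 most abundant members at 180 min. FRK1 changed by 4.88 (SE 0.59, adjusted p 1.01e-10) in npr1-1, 4.04 (SE 0.56, adjusted p 8.31e-09) in jar1-1 and 2.31 (SE 0.52, adjusted p 0.000402) in ein2-5, and AT3G46280 by 3.51 (SE 0.50), 3.01 (SE 0.49) and 2.03 (SE 0.47). Without replicate 3 AT3G46280 was not called in ein2-5 (adjusted p 0.0119). Of the 12 protein kinases all rose in npr1-1 and jar1-1 and 10 rose in ein2-5. The exceptions there were the receptor lectin kinase RLK at 1.1 (SE 0.39, adjusted p 0.0262) and the leucine-rich repeat kinase AT1G51850 at 1.43 (SE 0.44, adjusted p 0.0103), and both rose in the fit with the replicate block.

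Of 5 transcription factors WRKY9 was the most abundant late. It read 11.5, 1.32 and 19.4 TPM in Col-0 water, 26.1, 24.7 and 38.8 TPM at 60 min, 104, 97.9 and 121 TPM at 120 min and 242, 202 and 165 TPM at 180 min. ABR1, an ERF-type factor known as a repressor in abscisic acid responses, was earlier, with 2.70, 2.64 and 2.77 TPM in water, 80.6, 122 and 112 TPM at 60 min and 86.7, 103 and 67.5 TPM at 180 min. WRKY9 changed by 4.30 (SE 0.54, adjusted p 4.2e-10), 4.44 (SE 0.54, adjusted p 2.28e-10) and 3.11 (SE 0.55, adjusted p 9.14e-06) in npr1-1, jar1-1 and ein2-5, and ABR1 by 5.06 (SE 0.45), 4.42 (SE 0.45) and 3.37 (SE 0.44). WRKY61 and the ERF-type AT5G61890 rose in all 3 mutants as well. MYB42 rose in npr1-1 and jar1-1 and stood at 1.48 (SE 0.67, adjusted p 0.0898) in ein2-5.

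Both secreted peptides rose in every mutant. RALF1 encodes a peptide that raises the pH of the wall through the receptor FERONIA. It read 4.05, 3.30 and 8.31 TPM in Col-0 water and 53.1, 49.2 and 35.2 TPM at 180 min, and 2.55, 1.69 and 2.45 TPM and 105, 107 and 59.7 TPM at those times in npr1-1. Its log2 change was 5.49 (SE 0.47, adjusted p 2.14e-15) in npr1-1, 3.74 (SE 0.43, adjusted p 3.18e-11) in jar1-1 and 4.03 (SE 0.42, adjusted p 3.51e-11) in ein2-5. RGF7, a root meristem growth factor-like peptide, went in Col-0 from 64.1, 5.94 and 47.8 TPM to 391, 529.8 and 360.4 TPM and changed by 4.69 (SE 0.69), 4.12 (SE 0.67) and 3.19 (SE 0.65) in the 3 mutants.

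The shikimate pathway makes chorismate, from which phenylalanine and tryptophan branch. Its first step, DAHP synthase, is represented by AT1G22410, which read 111, 64.7 and 105 TPM in Col-0 water, 707, 368 and 519.5 TPM at 60 min and 1374, 1292 and 1212 TPM at 180 min. AT2G45300 (EPSP synthase), EMB1144 (chorismate synthase), PD1 and the aminotransferase AAT, which acts on prephenate, complete the group of 5. All 5 rose in npr1-1, jar1-1 and ein2-5. AT1G22410 changed by 4.02 (SE 0.40, adjusted p 2.63e-13), 4.30 (SE 0.41, adjusted p 6.35e-14) and 2.24 (SE 0.37, adjusted p 3.09e-06), and the medians of the group were 3.44, 4.01 and 2.38.

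Phenylpropanoid synthesis starts from phenylalanine with the lyase PAL, followed by the hydroxylase C4H and the ligase 4CL. OMT1 (caffeic acid O-methyltransferase) and LysoPL2 (caffeoyl shikimate esterase) act further on towards lignin. The members were PAL1, C4H, 4CL1, 4CL2, 4CL5, OMT1 and LysoPL2. PAL1 read 86.4, 38.9 and 163 TPM in Col-0 water, 744, 308 and 469 TPM at 60 min and 2094, 1126 and 1494 TPM at 180 min. C4H read 328, 127 and 431 TPM, 1397, 852 and 919.9 TPM and 4056, 3162 and 2835 TPM at the same times. OMT1 lagged behind both, with 758, 351 and 569 TPM in water, 926, 719 and 645 TPM at 60 min and 3542, 3124 and 2334 TPM at 180 min. All 7 rose in each mutant, with medians of 3.69 in npr1-1, 3.63 in jar1-1 and 1.77 in ein2-5. PAL1 changed by 5.07 (SE 0.50, adjusted p 1.97e-13), 4.93 (SE 0.50, adjusted p 5.1e-13) and 2.26 (SE 0.44, adjusted p 4.95e-05), and C4H by 3.95 (SE 0.40), 3.98 (SE 0.40) and 1.77 (SE 0.37). C4H lost its call in ein2-5 without replicate 1 (adjusted p 0.0125). On a list of 18 genes of this pathway, 6 of them members, 15 rose in npr1-1, 16 in jar1-1 and 13 in ein2-5.

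Tryptophan is made from chorismate by anthranilate synthase (ASA1), the transferase TRP1, indole-3-glycerol phosphate synthase (AT2G04400) and the 2 subunits of tryptophan synthase (TSA1 and TSB2). TSA1 read 559, 303 and 350.4 TPM in Col-0 water, 1371, 854 and 901 TPM at 60 min and 3302, 3071 and 2469 TPM at 180 min. ASA1 read 108, 69.3 and 79.6 TPM in water, 1082, 713 and 936 TPM at 120 min and 743, 622 and 669 TPM at 180 min. TSB2, a beta subunit, was scarce, at 9.45, 2.64 and 2.77 TPM in water and 46.6, 29.3 and 31.2 TPM at 180 min. All 5 rose in npr1-1 and in jar1-1. In ein2-5 only TSA1, at 1.62 (SE 0.39, adjusted p 0.000921), and AT2G04400, at 1.29 (SE 0.31, adjusted p 0.00105), rose, while ASA1 stood at 0.63 (SE 0.41, adjusted p 0.267), TRP1 at 0.72 (SE 0.37, adjusted p 0.144) and TSB2 at 0.04 (SE 0.61, adjusted p 0.979). Without replicate 2 neither TSA1 (adjusted p 0.063) nor AT2G04400 (adjusted p 0.0949) was called in ein2-5. On a list of 8 genes of tryptophan synthesis, 5 of them these members, 7 rose in npr1-1 and 7 in jar1-1, whereas ein2-5 had 3. The shares of all features that rose were 19.6%, 20.0% and 8.8%.

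A group of 3 genes acts on indolic compounds made from tryptophan. CYP71A12 converts indole-3-acetaldoxime towards camalexin and indole carbonyl nitriles, CYP82C2 hydroxylates an indole carbonyl nitrile, and GSTF6 has been linked to the glutathione step of camalexin synthesis. GSTF6 was the most abundant member, at 1926, 691 and 1648 TPM in Col-0 water, 4777, 4984 and 3539 TPM at 30 min, 11378, 13954 and 10226 TPM at 60 min and 20378, 22657 and 13752 TPM at 180 min. CYP71A12 read 19.2, 2.86 and 75.0 TPM in water, 1370.4, 2007 and 1550.5 TPM at 120 min and 799, 838 and 669.9 TPM at 180 min, and thus had passed its peak. CYP82C2 read 1.35, 0 and 41.6 TPM in water, with replicate 3 far above the other water libraries, and 348, 437 and 364 TPM at 180 min. GSTF6 changed by 4.25 (SE 0.44, adjusted p 6.36e-13), 4.12 (SE 0.43, adjusted p 1.9e-12) and 1.73 (SE 0.39, adjusted p 0.000432) in npr1-1, jar1-1 and ein2-5. CYP71A12 changed by 6.14 (SE 0.80), 7.48 (SE 0.85) and 2.21 (SE 0.65), and CYP82C2 by 7.70 (SE 1.38), 7.82 (SE 1.31) and 4.78 (SE 1.07). All 3 rose in every mutant. In ein2-5 the call of CYP71A12 was lost without replicate 2 (1.68, adjusted p 0.153), and that of GSTF6 without replicate 1 (adjusted p 0.0125) or replicate 2 (adjusted p 0.0199). On a list of 9 genes of camalexin and indole carbonyl nitrile synthesis, 3 of them these members, 8 rose in npr1-1, 8 in jar1-1 and 4 in ein2-5.

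Serine and methionine metabolism supplies one-carbon units for methylation. EDA9 is a phosphoglycerate dehydrogenase, the first enzyme of the phosphorylated route to serine, SHM4 a serine hydroxymethyltransferase and MAT3 an S-adenosylmethionine synthetase. EDA9 read 63.4, 52.8 and 73.4 TPM in Col-0 water, 61.6, 34.9 and 36.8 TPM at 60 min, 399.5, 579.5 and 392 TPM at 120 min and 484, 614 and 472 TPM at 180 min, so that its rise lay wholly after 60 min. In ein2-5 it read 20.2, 42.5 and 22.9 TPM in water and 26.3, 59.2 and 45.4 TPM at 180 min, and these ranges overlapped. EDA9 changed by 2.62 (SE 0.36, adjusted p 6.02e-09) in npr1-1, 3.72 (SE 0.38, adjusted p 8.94e-13) in jar1-1 and 0.60 (SE 0.37, adjusted p 0.233) in ein2-5. MAT3 changed by 3.53 (SE 0.37), 3.60 (SE 0.37) and 1.81 (SE 0.34), and SHM4 by 2.69 (SE 0.30), 3.02 (SE 0.30) and 2.33 (SE 0.29), and both rose in all 3.

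Sugar metabolism and nucleotide sugars accounted for 9 members, among them RGP1, which interconverts UDP-arabinose forms for the wall, the cell wall invertase ATBFRUCT1, the UDP-galactose transporter AT2G02810 and TRA2. RGP1 read 54.7, 11.9 and 46.4 TPM in Col-0 water, 235, 239.7 and 193 TPM at 120 min and 399, 363 and 375 TPM at 180 min. It changed by 3.66 (SE 0.44, adjusted p 9.89e-11), 3.57 (SE 0.44, adjusted p 2.68e-10) and 3.06 (SE 0.43, adjusted p 1.2e-07) in npr1-1, jar1-1 and ein2-5. ATBFRUCT1 was the only one of the 9 not called in ein2-5, at 0.89 (SE 0.35, adjusted p 0.0512). Its ein2-5 levels were already high in water, at 962, 913 and 1520.4 TPM against 1899.5, 1999 and 2504 TPM at 180 min, and it rose there in the fit with the replicate block.

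Other enzymes grouped by product name were 5 class III peroxidases, which use hydrogen peroxide at the wall, and 6 proteases. Prx37 read 81.6, 42.9 and 40.9 TPM in Col-0 water, 995, 863 and 960.4 TPM at 60 min, 1643, 1955 and 1400.0 TPM at 120 min and 1106, 1215 and 928 TPM at 180 min. AT5G64100 rose late, at 328, 291 and 838 TPM at 120 min and 1922, 1368 and 1804 TPM at 180 min. Its water libraries scattered widely, with 368, 17.8 and 357 TPM in Col-0 and 491, 636 and 134 TPM in jar1-1. It was the 1 member not called in jar1-1, at 2.67 (SE 1.23, adjusted p 0.0641), and it rose there with the replicate block, at 2.71 (adjusted p 0.000495). Prx37 changed by 4.32 (SE 0.50), 5.41 (SE 0.53) and 4.05 (SE 0.52) in npr1-1, jar1-1 and ein2-5 and rose in all 3. The aspartyl protease AT5G48430 was the most abundant protease. It read 338, 20.5 and 290.2 TPM in Col-0 water and 2773, 3366 and 2254 TPM at 180 min, and it changed by 3.91 (SE 0.66), 3.52 (SE 0.65) and 2.75 (SE 0.63). All 6 proteases rose in every mutant.

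Several other members were among the most abundant or the steepest. AT2G38870, a protease inhibitor of the potato inhibitor I type, read 866, 340.4 and 1009.8 TPM in Col-0 water and 7370.5, 8626 and 5650.5 TPM at 180 min. UCC2 read 14.5, 5.28 and 47.8 TPM in water and 1753, 1545 and 1432 TPM at 180 min, and AT5G40590 12.8, 1.32 and 33.6 TPM and 1410.4, 1705 and 1030.0 TPM. AT2G34000 went from 1.35, 1.32 and 2.08 TPM to 91.0, 105 and 58.4 TPM. The water and 180 min libraries of these 4 genes did not overlap, and these are values the rule used to choose them. UCC2 changed by 6.56 (SE 0.72), 6.61 (SE 0.72) and 3.97 (SE 0.63), AT5G40590 by 6.74 (SE 0.90), 7.52 (SE 0.96) and 4.60 (SE 1.03), and AT2G34000 by 6.72 (SE 0.70), 5.67 (SE 0.66) and 3.40 (SE 0.58) in npr1-1, jar1-1 and ein2-5, and all 3 genes rose in each. The lipid transfer protein AT4G12500 rose in npr1-1 and jar1-1, at 2.85 (SE 0.57) and 2.38 (SE 0.56), and stood at 0.83 (SE 0.54, adjusted p 0.265) in ein2-5, where it rose with the replicate block. Without replicate 1 AT5G40590 was not called in ein2-5 (adjusted p 0.0164), and without replicate 3 AT4G12500 was not called in jar1-1 (adjusted p 0.0167).

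Of the members 27 were not called in ein2-5 against water. The lowest log2 changes were those of TSB2, EDA9 and ASA1, given above, with the tyrosine aminotransferase TAT3 at 0.53 (SE 0.59, adjusted p 0.556) and the cation/H+ exchanger CHX17 at 0.59 (SE 0.46, adjusted p 0.373). TAT3 read 0 TPM in all 3 npr1-1 water libraries and 14.6, 8.44 and 0.711 TPM at 180 min, which was at least 13.2-fold higher, taking 3 tags in the water group as the floor. In ein2-5 it read 88.3, 252 and 69.9 TPM in water and 217, 194 and 159 TPM at 180 min, and these ranges overlapped. With the replicate block 135 members rose in ein2-5, the added 11 being AT1G51850, RLK, AT2G39210, AT2G39420, AT2G43620, AT2G44380, ATBFRUCT1, AT3G18250, AT3G61185, AT4G12500 and AT5G64100. Calls over all features, in either direction, went from 3030 to 4314 with that block.

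A test between mutants asked where ein2-5 stood apart from the mean of npr1-1 and jar1-1. In water 63 members were higher in ein2-5 and 1 was lower, where 7.39% of all features were higher and 1.57% lower. The median log2 difference was 1.23 over members and 0.03 over all features. All 7 phenylpropanoid genes were higher, with a median of 2.91. PAL1 read 602, 601 and 681 TPM in ein2-5 water, 93.5, 53.2 and 43.1 TPM in npr1-1 and 125, 110.2 and 66.7 TPM in jar1-1, so the ein2-5 libraries lay above all 6 others, and the difference was 3.36 (SE 0.36, adjusted p 1.08e-11). 4CL5 read 112, 102 and 178 TPM in ein2-5, 9.71, 5.92 and 7.35 TPM in npr1-1 and 7.97, 5.44 and 7.45 TPM in jar1-1, with a difference of 4.49 (SE 0.45, adjusted p 1.02e-12). CYP71A12 differed by 3.56 (SE 0.58), AT2G38870 by 2.88 (SE 0.29), ATBFRUCT1 by 2.60 (SE 0.29), MAT3 by 2.09 (SE 0.28) and GSTF6 by 1.62 (SE 0.32), all higher in ein2-5. TAT3 had 679 tags in the 3 ein2-5 water libraries, 0 in those of npr1-1 and 5 in those of jar1-1. NIMIN1, which binds NPR1 in the salicylic acid pathway, and the VQ motif protein AT2G33780 were also among the largest, at 4.23 (SE 0.66) and 4.88 (SE 0.67). Of the 5 tryptophan genes and the 5 peroxidases 0 were called, and of the 12 ER genes 1, the Sec61 gamma subunit AT4G24920 at 1.11 (SE 0.26). Without replicate 3 the differences of GSTF6 (1.12, adjusted p 0.0837) and AT4G24920 (0.72, adjusted p 0.207) were not called, and AT4G24920 was not called without replicate 1 either (adjusted p 0.0206). AT5G06570, an alpha/beta-hydrolase, was the 1 member lower in ein2-5, at -3.47 (SE 0.60, adjusted p 6.56e-06).

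Gene lists by pathway moved with that difference, and some held members. NIMIN1 was on the salicylic acid list and FRK1 among the early markers. Of all features 7.39% were higher and 1.57% lower. In water 13 of 14 jasmonate genes, 12 of 14 salicylic acid genes and 7 of 10 early flg22 marker genes were higher in ein2-5 than the mean of npr1-1 and jar1-1, whereas 7 of 12 ethylene genes were lower and 2 were higher. Of 18 phenylpropanoid genes, the members on that list included, 16 were higher. The part of these lists in the members' difference was not tested, and the difference between lines cannot be told apart from the sequencing runs. The lines compared with are themselves mutated in salicylic acid (npr1-1) and jasmonate (jar1-1) genes, and Col-0 was left out. Lower levels in those lines and higher levels in ein2-5 therefore cannot be told apart by these counts. Replicate 3 of ein2-5 water was the highest of its group for several members, such as AT2G38870 at 2226, 2158 and 7241 TPM.

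At 180 min 7 members were higher in ein2-5 and 16 lower than the mean of npr1-1 and jar1-1, where 3.97% of all features were higher and 2.18% lower. Without replicate 1 the number of calls was 15, and a fit restricted to the groups compared gave 40. Calls over all features numbered 1033 as reported and 483 and 771 in those fits. All 5 tryptophan genes were lower. TSA1 read 862, 859.8 and 638 TPM in ein2-5, 2311, 2430.2 and 1879 TPM in npr1-1 and 4042, 3287 and 3794 TPM in jar1-1, and the difference was -1.81 (SE 0.36, adjusted p 0.000168). ASA1 differed by -2.13 (SE 0.39), TRP1 by -1.65 (SE 0.34), AT2G04400 by -1.68 (SE 0.29) and TSB2 by -2.75 (SE 0.49). EDA9 was lower as well, with 26.3, 59.2 and 45.4 TPM in ein2-5 against 379, 283 and 253 TPM in npr1-1 and 428, 367 and 271 TPM in jar1-1, a difference of -2.91 (SE 0.35, adjusted p 1.73e-09). AIG2, of an avirulence-induced family, read 114, 149.8 and 73.4 TPM, 706, 580.1 and 798 TPM and 822, 622 and 701 TPM in that order and differed by -2.61 (SE 0.33, adjusted p 6.48e-09). AT5G40590 read 56.2, 37.0 and 35.7 TPM in ein2-5, 1827, 1310.4 and 1508 TPM in npr1-1 and 1318, 984 and 682 TPM in jar1-1. In TSA1, EDA9, AIG2 and AT5G40590 the ein2-5 libraries lay below all 6 others. Calls were lost for TSB2 without replicate 1 (-2.39, adjusted p 0.0119) and for TRP1 without replicate 2 (-1.52, adjusted p 0.0162).

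Some lower members were nearly unread in ein2-5. The aminotransferase AT4G28420 had 2 tags in the 3 ein2-5 libraries at 180 min against 311 in npr1-1 and 309 in jar1-1 (adjusted p 1.42e-09). AT3G54040, a PAR1 protein, had 6 tags there, the methyltransferase AT3G05390 had 7 and ABCG40 had 8, and their differences were -5.02 (SE 0.74), -4.58 (SE 0.48) and -3.43 (SE 0.75). Higher in ein2-5 at 180 min were TAT3 at 4.29 (SE 0.57, adjusted p 3.46e-08), AT2G33780 at 1.66 (SE 0.41), RLK at 1.37 (SE 0.33), the acyltransferase AT5G12420 at 1.36 (SE 0.33), LysoPL2, OMT1 and SHM4, the last 3 by 0.98 (SE 0.27), 0.98 (SE 0.26) and 0.94 (SE 0.23). Apart from TAT3 each of these calls was lost in some fit that left out 1 replicate. AT2G33780, AT5G12420 and SHM4 each lost theirs without any 1 of the 3 (adjusted p 0.0126 to 0.0596). RLK lost its call without replicate 2 (0.0207) or 3 (0.14), and LysoPL2 and OMT1 without replicate 1 (0.182 and 0.177) or 3 (0.112 and 0.0525). ABCG40 lost its call without replicate 1 (adjusted p 0.072). OMT1 read 5508, 6542 and 7137 TPM in ein2-5, 3140.2, 3723 and 3652 TPM in npr1-1 and 2817, 3119.6 and 3559 TPM in jar1-1.

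**Figure D4:**
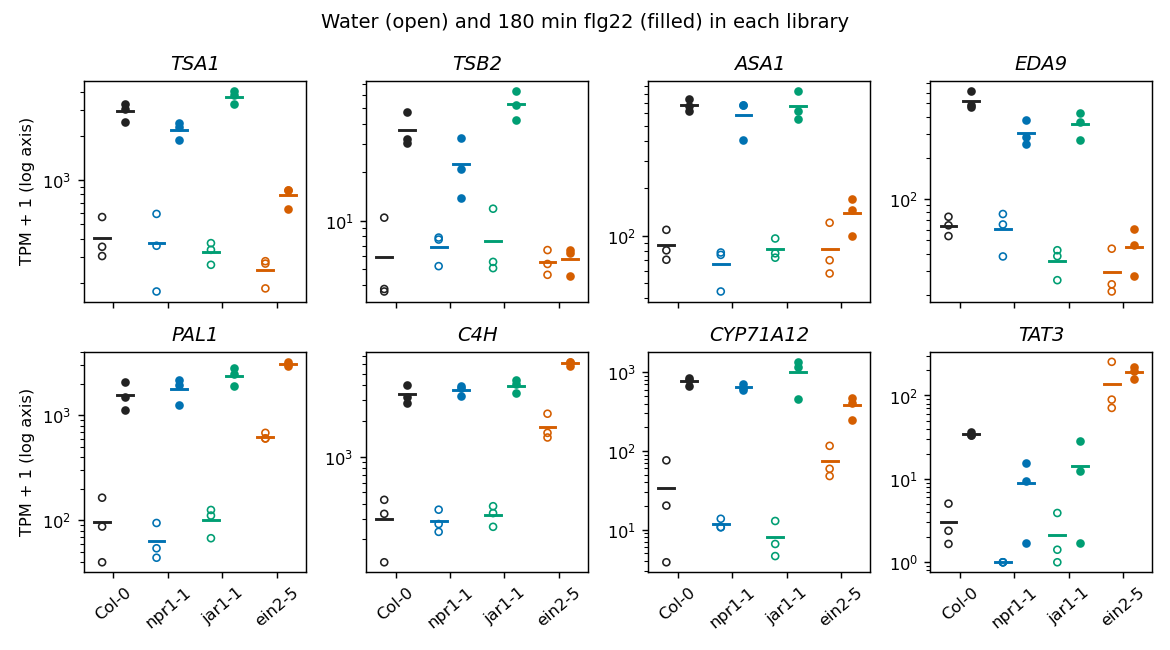
Level in each library (y axis, TPM plus 1 on a log scale) of 8 late-rising loci in the 4 lines (x axis), with open circles for water, filled circles for 180 min of flg22 and bars for the mean of 3 replicates. In ein2-5 TSA1, TSB2, ASA1 and EDA9 stay below the other lines at 180 min, and PAL1, C4H, CYP71A12 and TAT3 start from higher water levels than in npr1-1 and jar1-1.

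The change from water to 180 min was itself compared between lines. It was smaller in ein2-5 than the mean of npr1-1 and jar1-1 for 40 members and larger for 0, where 3.41% of all features were lower and 0.975% higher. The median difference was -1.55 in log2, against 0.02 over all features. This count was 8 without replicate 1, 17 without replicate 2 and 8 without replicate 3, and with the replicate block it was 73. Calls over all features moved too, from 737 as reported to 274, 320 and 164 without replicates 1, 2 and 3. With the replicate block they numbered 1420. The members' count was 22 with total tags in place of TMM scaling, with which the median difference of all features was 0.35 and 527 features were called. Of the phenylpropanoid genes 6 of 7 were called, among them 4CL5 at -3.31 (SE 0.63, adjusted p 0.000141) and PAL1 at -2.74 (SE 0.53, adjusted p 0.000181), whose 180 min levels were not called different. Of the tryptophan genes 4 of 5 were called, among them ASA1 at -2.78 (SE 0.51, adjusted p 9.07e-05) and TSB2 at -2.68 (SE 0.71, adjusted p 0.00838), whose water levels were not called different. The smaller change stood beside higher water levels for the phenylpropanoid genes and lower 180 min levels for the tryptophan genes. CYP71A12 differed by -4.60 (SE 0.84, adjusted p 7.55e-05), GSTF6 by -2.45 (SE 0.48, adjusted p 0.000208) and EDA9 by -2.57 (SE 0.45, adjusted p 3.97e-05). Of the 12 ER genes 1 was called, AT4G24920 at -1.61 (SE 0.38, adjusted p 0.00277). TSA1, at -1.73 (SE 0.47, adjusted p 0.0106), was called with the replicate block (adjusted p 0.000244) and with DESeq2 (adjusted p 0.0036). Without replicate 1 the calls of 4CL5 (adjusted p 0.0158), CYP71A12 (0.0168), EDA9 (0.03) and GSTF6 (0.0119) were lost, GSTF6 also without replicate 3 (0.0604), and TSB2 and AT4G24920 lost theirs without any 1 of the 3. Between jar1-1 and npr1-1 the change differed for 0 members with edgeR and 0 with DESeq2, 0.0% of all features were higher or lower, and 8 members had an unadjusted p under 0.05.

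Tags on the opposite strand of the members were counted apart. Of 150 member loci with such a feature 81 passed the filter, and 76 were called at 180 min against water in at least 1 mutant, all higher. In npr1-1 70 of the 81 were called higher, against 19.6% of all antisense features, in jar1-1 67 against 16.6%, and in ein2-5 11 against 2.71%. The filter asked for enough tags in only as many libraries as 1 group holds. A scarce antisense feature could therefore pass through its late groups alone, where it is high. How many did so was not counted, so these counts are a description and no independent support of the rise. The calls over the 3 mutants summed to 148, and to 78 without replicate 3. Antisense tags summed to 2.71% to 3.88% of sense tags over those 81 loci in water and at 180 min of the 4 lines. GSTF6 had the most sense tags and its antisense feature had a mean of 23.1 TPM in npr1-1 water and 365 TPM at 180 min, a log2 change of 4.21 (SE 0.59). In jar1-1 the means were 24.5 and 317 TPM (log2 change 4.05), and in ein2-5 42.3 and 132 TPM, which was not called (adjusted p 0.0277). For GLP5, a germin-like protein of the wall, the antisense changes were 3.50, 3.29 and 1.97 in npr1-1, jar1-1 and ein2-5, each called. Whether antisense tags had been read from sense RNA was not tested.

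WRKY factors bind the W-box, searched here as TTGACC or TTGACT on both strands of the same 300-base windows. The W-box was present in 73 of 151 members (48.3%) and in 32.4% of all windows, and its core TTGAC, which the W-box contains, in 67.5% and 50.5%. Among members 78 windows had no W-box, 45 had 1, 16 had 2, 11 had 3 and 1 had 4. By group, 4 of 5 tryptophan genes, 7 of 12 kinases and 4 of 6 proteases had one, as did 0 of 5 shikimate genes. The window of AT3G46280 at chr3:17008529-17008828 (minus strand) is shown, with each W-box in capitals. This kinase-like gene was picked from the most abundant members for its high number of W-boxes. Its window therefore does not stand for the members, 78 of which had no W-box.
AT3G46280: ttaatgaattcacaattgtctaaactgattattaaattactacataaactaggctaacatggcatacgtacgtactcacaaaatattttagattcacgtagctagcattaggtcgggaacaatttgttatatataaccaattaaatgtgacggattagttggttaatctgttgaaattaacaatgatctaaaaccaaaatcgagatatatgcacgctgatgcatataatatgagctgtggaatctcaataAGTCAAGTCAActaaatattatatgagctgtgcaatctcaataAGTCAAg
AT3G46280 had 3 W-boxes on the opposite strand, written as AGTCAA, at 50 to 45, 45 to 40 and 7 to 2 bases upstream, and the first pair share a base.

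The G-box CACGTG was in 10.6% of member windows and 7.55% of all windows, and 6 of the 16 members with it were ER genes, where in all 4 shown above a G-box overlapped the ERSE. The evening element AAATATCT was in 10.6% and 5.75%, TGACG, from the as-1 element, in 24.5% and 21.6%, GCCGCC (GCC-box) in 2.65% and 2.33% and CGCGT (CGCG box) in 7.28% and 8.19%. These shares are descriptions of letters and were not tested.

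**Figure D5:**
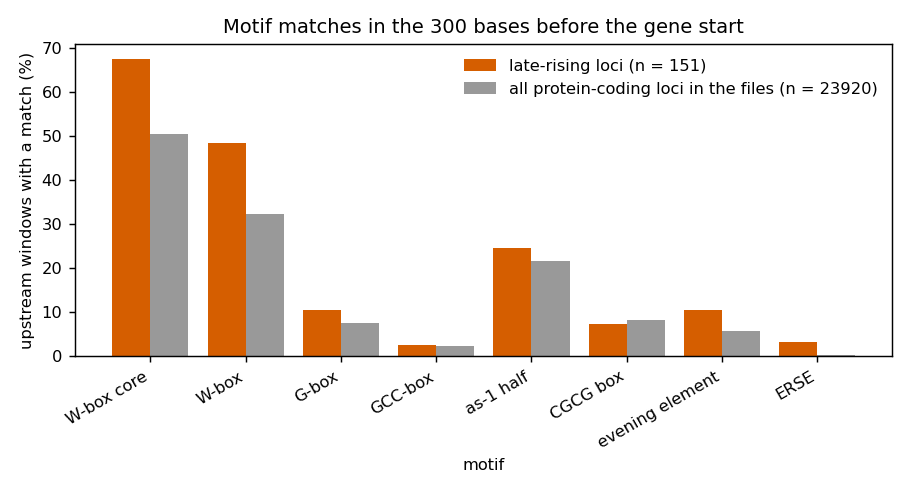
Share of upstream windows of 300 bases (y axis, %) with at least 1 match to each motif (x axis), for the 151 late-rising loci and for all 23920 protein-coding loci in the files. The W-box bar stands at 48.3% for the late-rising loci and 32.4% for all, and ERSE at 3.31% and 0.364%.

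Some members lay side by side on TAIR10.1. There were 11 pairs of neighbouring members with 22 loci, 8 on the same strand, 2 divergent and 1 convergent. In 4 pairs both products had the same name, such as the aspartyl proteases AT3G51330 and AT3G51340, 318 bases apart. The ligases 4CL5 and 4CL2 lay 2162 bases apart, and RGP1 and RGF7 633 bases apart. The convergent pair BSK6 and AT3G54040 overlapped by 41 bases at their ends, where tags are told apart by strand alone. Tags that matched several loci had been shared among them: 63 members had no fractional value in any library, while 16 had them in at least 50% of the libraries, so levels of close copies are uncertain. AT5G50560 and AT5G50660, 2 proteins of one family, had near-identical values, such as 33.8 and 33.5 TPM as Col-0 means at 180 min, and count as 2 of the 151 members.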

How the data were processed

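Leaf-disc RNA was sequenced as tags by EXPRSS in 96 libraries of 32 groups. One further deposited library had no group in the labels and was not used. The authors aligned tags with Bowtie 0.12.8 to TAIR10, and the deposited values are expected counts of tags per locus and strand, in which a tag with several matches was shared among loci. Of the values above 0, 12.0% to 18.4% per library were not whole, so they were rounded for count tests, which changed totals by -0.0506% to -0.0122%. Totals of 388691 to 2415393 tags limit precision at low levels, and intervals of counting error alone were not needed with 3 replicates.

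Levels (TPM) are tags in every 1000000 of the library total. Tests used edgeR 4.0.16 in R 4.3.3 (filterByExpr with a minimum count of 10, TMM, quasi-likelihood F test) on all 32 groups, with Benjamini-Hochberg adjustment over 14569 sense and 2247 antisense features and a call at an adjusted p under 0.01. The SE is the size of the log2 change over the square root of F. Where a line had no tags, a floor of 3 tags over the group was used. The script was tested on simulated data drawn without lane effects, so that check does not cover correlation within lanes. Genes named were the 10 most abundant members, the 10 with the largest ratio, the 3 on each side of the limit, list members, transcription factors, members with called antisense features, the 5 largest and 5 smallest called differences in each contrast between mutants, and up to 5 members not called higher in each mutant; only those that illustrate a comparison are printed, and others were chosen after their values were seen. The members, lists and groups of function were chosen with earlier results of these data known.

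Per a deposited note, each replicate number of a line was 1 lane of 8 libraries, so numbers pair libraries within a line. Deviations from group means correlated at a mean of 0.146 within Col-0 lanes (-0.073 between them), 0.242 for npr1-1 (-0.120), 0.185 for jar1-1 (-0.092) and 0.386 for ein2-5 (-0.193), and in each line 24 of 24 libraries were most like their own lane. The negative values between lanes follow from centring each group on its own mean and add no separate evidence. Alternatives were DESeq2 1.42.0, limma-voom 3.58.1 with lane as a random block, a fixed replicate block, total tags in place of TMM, no filter, only the groups compared, no organelle loci, each replicate left out, and other limits of the rule. Upstream windows were read from TAIR10.1 with its RefSeq annotation, since the files hold no coordinates. One upstream sequence is not reported here.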

Additional observations from a re-analysis of the deposited data

Results flagged for a closer look

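The change from water to 180 min differed between ein2-5 and the mean of npr1-1 and jar1-1 for 40 late-rising members by edgeR's test of the difference itself, smaller in ein2-5 for each of them. Among the called members the log2 differences nearest to 0 were -1.60 for LysoPL2, -1.61 for the Sec61 gamma subunit AT4G24920, -1.70 for the EPSP synthase AT2G45300, -1.76 for MAT3 and -1.76 for the indole-3-glycerol phosphate synthase AT2G04400. Those farthest from 0 were -4.62 for TAT3, -4.60 for CYP71A12, -3.31 for 4CL5, -3.29 for the acyltransferase-family gene AT5G42830 and -3.25 for NIMIN1. The value of TAT3 rests on 0 tags in npr1-1 water. The count was 8 without replicate 1, 17 without replicate 2 and 8 without replicate 3. Calls over all features fell from 737 to 274, 320 and 164 in those fits.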

How the results depend on the processing

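Of the single-gene results checked, none that was called as reported or in the alternative reversed its direction. Counts of members have no direction and could not reverse. Calls over all features moved with the setting too. For the change they went from 737 to 164 without replicate 3 and to 1420 with the replicate block. Medians near 0 over all features did change sign, such as 0.08 to -0.11 with DESeq2 for npr1-1 at 180 min against water. Members that rose from water to 180 min numbered 145 to 149 in npr1-1, 145 to 149 in jar1-1 and 89 to 105 in ein2-5 with 1 replicate left out. From 30 to 180 min the ranges were 124 to 146, 101 to 137 and 88 to 118. From water to 30 min they were 8 to 33, 24 to 42 and 1 to 7, and npr1-1 gave 18 with only the groups compared, while ein2-5 gave 7 with DESeq2, 7 with total tags, 9 with no filter, 0 with only the groups compared and 17 with limma-voom. From 45 to 120 min in Col-0 the range was 54 to 67. Between ein2-5 and the other mutants it was 43 to 63 in water, 15 to 19 at 180 min and 8 to 17 for the change, while the 180 min count was 40 with only the groups compared and the change count 22 with total tags, 65 with no filter and 68 with limma-voom. Between jar1-1 and npr1-1 it was 0 to 0. Antisense calls ranged from 78 to 104 and were 85 with only the groups compared. The replicate block gave 71 calls from water to 30 min in jar1-1, 17 in ein2-5 and 73 for the change, and moved no other count by more than 1.5 times. Limits of 3 and 6 times in the rule gave 275 and 63 members, leaving out a replicate 129 to 175, and 89 to 97 members then first reached 50% of their 180 min level at 120 min. Total tags in place of TMM moved the median log2 of all features by -0.36 in the water contrast, 0.33 in the change, -0.37, -0.40 and -0.12 from water to 30 min in npr1-1, jar1-1 and ein2-5, and -0.34 to 0.19 in the other contrasts. The cause of these differences was not tested.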
